A study of Rattus norvegicus with 8 samples.

Results

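Interleukin-1, TNF and the genes their signal switches on through NF-kappaB were followed by 13 probe sets of 10 genes in the rat ventral prostate, out of 31099 probe sets on the array, 20832 of which carry 1 gene symbol. The genes are the IL-1 family members Il1a, Il1b, Il1rn, Il18 and Il33, the cytokines Il6, Tnf and Lif, and the response genes Ptgs2 and Nfkbia. A probe set was taken when the platform annotation gave it exactly 1 of these symbols, whatever its intensity. Of the 13, 11 probe sets of 8 genes were bright enough to be tested, and Il1rn and Lif were not.

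The samples were 8 RNA pools from Sprague-Dawley males of generation F3, each on 1 Affymetrix expression array, in 4 groups of 2. Whole ventral prostate came from control and from vinclozolin lineage males at 180 days of age, with several animals per pool. Prostate epithelium came from control and from vinclozolin lineage males at 45 days, with 11 animals per pool. The founding mothers were injected on days 8 to 14 of pregnancy, and sequential breeding of their offspring gave F3. Vinclozolin is a fungicide whose breakdown products block the androgen receptor. The injection text of all 8 samples names only the DMSO vehicle, also for those titled vinclozolin, so the lineage rests here on the titles. The labels give no method for separating the epithelium, and age and preparation cannot be told apart in these samples. Whether both pools of a group hold different animals is not labelled. The p-values thus reflect only the spread between pools, which may be technical.

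IL-1 alpha and beta, TNF and related ligands bind receptors at the cell surface and, through adaptor proteins and kinases, free the transcription factor NF-kappaB from its inhibitor in the cytoplasm. The freed factor enters the nucleus and turns on cytokines, adhesion molecules, survival genes and its own inhibitors, so that the signal is brief. In the prostate the same pathway is known from inflammation of the gland, where leukocytes, stromal cells and epithelial cells can all make these factors.

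The bases just before the start of 3 members are shown because Il6 and Ptgs2 rose most among the members, and Nfkbia was the brightest of those that rose, in the arrays titled epithelium. Each line holds the 250 bases before the annotated start, 5′ to 3′ on the gene's strand, from RefSeq on build GRCr8. Il6 lies at chr4:5894576-5894825 on the minus strand, Nfkbia at chr6:78597073-78597322 on the minus strand and Ptgs2 at chr13:64713813-64714062 on the plus strand. Capitals mark a match to the NF-kappaB consensus on either strand.
Il6: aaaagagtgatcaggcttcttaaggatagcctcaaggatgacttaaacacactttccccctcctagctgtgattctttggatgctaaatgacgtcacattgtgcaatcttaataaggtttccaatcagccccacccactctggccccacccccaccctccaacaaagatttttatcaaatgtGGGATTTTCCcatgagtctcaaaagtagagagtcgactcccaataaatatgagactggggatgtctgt
Nfkbia: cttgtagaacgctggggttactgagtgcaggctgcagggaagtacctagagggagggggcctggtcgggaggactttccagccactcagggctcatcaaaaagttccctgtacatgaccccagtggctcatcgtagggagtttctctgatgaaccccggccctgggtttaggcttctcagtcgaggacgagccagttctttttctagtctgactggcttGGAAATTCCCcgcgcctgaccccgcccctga
Ptgs2: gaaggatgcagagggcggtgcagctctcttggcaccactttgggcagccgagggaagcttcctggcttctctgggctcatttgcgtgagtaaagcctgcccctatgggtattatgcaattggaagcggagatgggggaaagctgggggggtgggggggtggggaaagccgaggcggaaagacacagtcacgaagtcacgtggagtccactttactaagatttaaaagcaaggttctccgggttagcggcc
In Il6 the match, GGGATTTTCC, lay on the gene's strand from base -68 to -59, counted back from the start. In Nfkbia it lay on the opposite strand from base -31 to -22 and reads GGAAATTCCC on the gene's strand. A cAMP response element, TGACGTCA, stood in the Il6 window from base -162 to -155, in lower case above.

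RefSeq windows were found for 9 of the 10 genes, all but Lif, with 2 windows for Il33. The NF-kappaB consensus was in 2 of the 9 genes, Il6 and Nfkbia, and in 6.33% of all 33469 promoter windows of this length. The AP-1 site TGANTCA was in Il1a alone, against 6.34% of all windows. The cAMP response element TGACGTCA was in Il6 alone, against 1.59% of all windows, and the TATA box TATAAA was in 5 of the 9 genes, Il1a, Il1b, Il1rn, Il33 and Tnf, against 12.9%. Both strands were searched, and none of these motifs overlapped another in the members. The matches describe letters in the window and not binding in these samples.

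The arrays were alike in scale and unlike in composition between preparations. Their trimmed mean intensity was 125 to 125.1 and their median 28.7 to 38.7. The 3′ to 5′ signal ratio of the actin control probes, which rises as RNA degrades, was 3.14 to 3.98 in whole prostate and 2.26 to 2.57 in epithelium. Luminal epithelial markers (6 genes) summed to between 15867.3 and 17918.9 on the 8 arrays. Smooth muscle markers (5 genes) summed to between 1699.6 and 2212.7 in whole prostate and between 11141.3 and 12837.7 in the arrays titled epithelium, and fibroblast markers (6 genes) to between 2530.9 and 2859.1 and between 8856.9 and 9538.4. The arrays titled epithelium therefore carry more stromal marker signal than whole prostate, and they are called epithelium below only as their titles do.

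**Figure D1:**
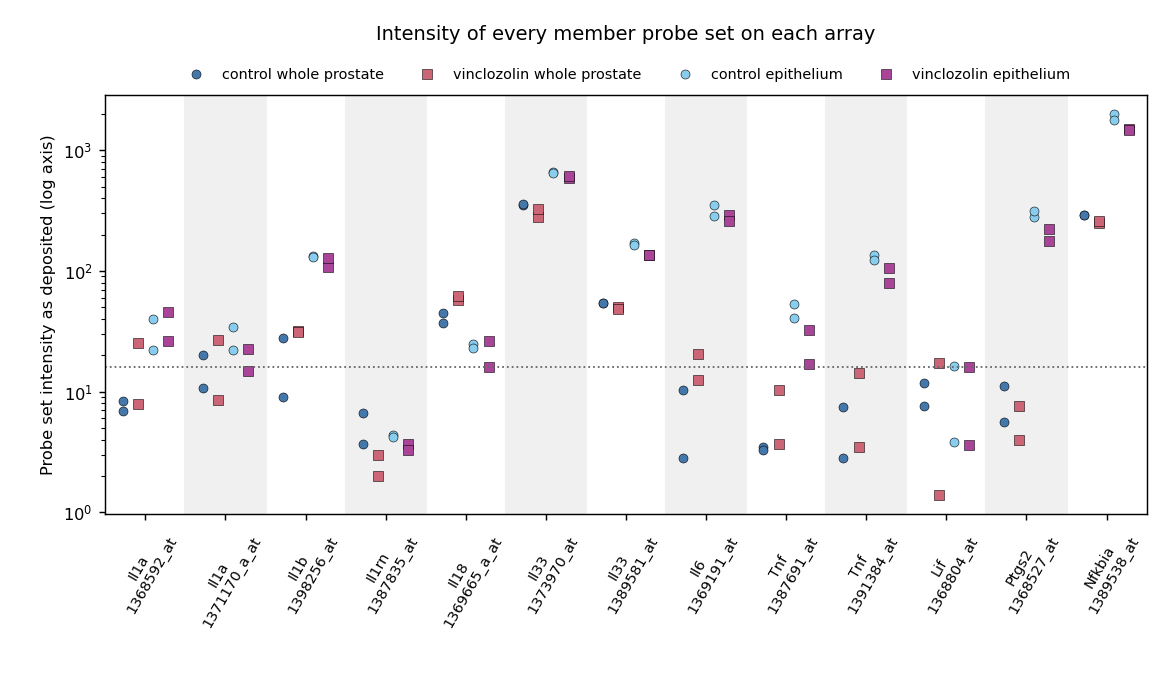
Deposited intensity (log axis) of each of the 13 member probe sets on each of the 8 arrays, 1 point per array, with colour for the group. Il6, Tnf, Ptgs2 and Nfkbia sit higher on all 4 epithelium arrays than on all 4 whole prostate arrays, and Il1rn stays under the dotted line at 16 on every array.

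Among the IL-1 family ligands, Il1a encodes IL-1 alpha, which is active as soon as it leaves a damaged cell. Its first probe set (1368592_at) read 8.3 and 6.9 in control whole prostate, 7.9 and 25.1 in vinclozolin whole prostate, 39.7 and 22.2 in control epithelium and 45.9 and 26.2 in vinclozolin epithelium. Its second (1371170_a_at) read 10.7 and 20.0, 26.8 and 8.6, 34.5 and 22.1, and 14.9 and 22.4 in the same order. The second probe set separated no group from all others, and the first was low on 3 of the 4 whole prostate arrays.

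Il1b encodes IL-1 beta, which is made as a precursor and cut by caspase-1. It read 9.0 and 27.7 in control whole prostate, 31.7 and 31.4 in vinclozolin whole prostate, 131.8 and 130.6 in control epithelium and 107.6 and 128.7 in vinclozolin epithelium. All 4 epithelium arrays were above all 4 whole prostate arrays, and control whole prostate replicate 1 was the lowest. Il1rn encodes the receptor antagonist that blocks both IL-1 ligands. It read between 2.0 and 6.7 on the 8 arrays, at percentiles 8.15 to 19.9 of the array, too dim to order the groups.

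Il18 encodes a further caspase-1 substrate, made by many epithelia. It read 45.1 and 36.9 in control whole prostate, 57.4 and 62.5 in vinclozolin whole prostate, 25.0 and 22.9 in control epithelium and 26.3 and 16 in vinclozolin epithelium. It ran opposite to the members called higher in epithelium, with every epithelium array under every whole prostate array. Il33 encodes a nuclear alarmin of barrier and stromal cells. Its brighter probe set (1373970_at) read 350.0 and 361.2, 280.3 and 324.6, 655.7 and 644.9, and 589.0 and 610.3 in the same order. The other (1389581_at) read 53.9 and 54.0, 50.0 and 48.6, 168.7 and 164.5, and 136.2 and 134.5. Both gave the same order of the 4 groups, control epithelium highest and vinclozolin whole prostate lowest.

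Il6, a cytokine that signals through gp130, read 2.8 and 10.3 in control whole prostate, 12.5 and 20.6 in vinclozolin whole prostate, 284.6 and 349.4 in control epithelium and 288.1 and 256.7 in vinclozolin epithelium. It stood at percentiles 12.3 to 39.2 of the whole prostate arrays and 85.3 to 88.9 of the epithelium arrays. The 2 epithelium groups overlapped, and both lay far above whole prostate.

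Tnf encodes the founding ligand of its family. Its first probe set (1387691_at) read 3.5 and 3.3, 3.7 and 10.4, 53.5 and 40.8, and 32.2 and 17.0, and its second (1391384_at) 7.5 and 2.8, 3.5 and 14.4, 135.7 and 122.8, and 105.4 and 78.7, in the order used above. Both were lowest in whole prostate of either lineage and highest in control epithelium, with vinclozolin epithelium between. Lif encodes another gp130 cytokine. It read between 1.4 and 17.2 on the 8 arrays, with the arrays of 1 group as far apart as the groups.

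Ptgs2 encodes the inducible cyclooxygenase of prostaglandin synthesis. It read 5.6 and 11.1 in control whole prostate, 7.6 and 4.0 in vinclozolin whole prostate, 277.3 and 315.5 in control epithelium and 178.6 and 223.4 in vinclozolin epithelium. Nfkbia encodes the NF-kappaB inhibitor that NF-kappaB itself induces. It read 292.2 and 292.3, 249.8 and 259.5, 2006.3 and 1784.2, and 1494.8 and 1472.0 in that order. In both genes the 4 groups fell in the order control epithelium, vinclozolin epithelium, control whole prostate, vinclozolin whole prostate, but the whole prostate groups overlapped for Ptgs2.

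The first comparison was epithelium with whole prostate within each lineage. In these bulk samples, fewer cells of a type and less RNA per cell cannot be told apart. The differences below are on the scale log2(intensity + 16), given with a standard error, and were tested with limma over 21729 probe sets with Benjamini-Hochberg adjustment. A call means an adjusted p under 0.05. The added 16 understates the change of dim probe sets.

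In the control arrays, 8 member probe sets were called higher in epithelium and 1 lower, in 7 genes, where 12.9% of all probe sets tested were called higher and 15.0% lower. In the vinclozolin arrays, which share no array with the control ones, 7 were called higher and 1 lower, against 13.1% and 14.2%. The arrays of both preparations did not overlap for 9 probe sets on the higher and 1 on the lower side in control, and 8 and 1 in vinclozolin arrays. Over all probe sets these shares were 29.2% and 37.4%, and 29.2% and 36.2%. The members' median difference was 1.56 in control and 1.11 in vinclozolin arrays, and over all probe sets tested it was -0.05 and -0.06. However, 5 of the 11 (1 of Il1a, Il6, both of Tnf, and Ptgs2) were bright enough to be tested only through the epithelium arrays, so these counts and medians are a description. Median centring shifted the median of all probe sets to -0.20 and -0.17, and higher calls then made up 28.7% of all calls in control and 32.3% in vinclozolin arrays, against 46.3% and 47.9%.

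Il6 rose most, by 3.85 ± 0.21 in control arrays (limma adjusted p = 0.000133) and by 3.12 ± 0.21 in vinclozolin arrays (adjusted p = 0.000289). On this scale that is 14.5-fold and 8.69-fold. Ptgs2 rose by 3.62 ± 0.19 (adjusted p = 0.000115) and 3.27 ± 0.19 (adjusted p = 0.000178), or 12.3-fold and 9.68-fold. Nfkbia, the brightest member, rose by 2.67 ± 0.12 (adjusted p = 6.48e-05) and 2.47 ± 0.12 (adjusted p = 8.79e-05), or 6.35-fold and 5.53-fold. In each of these 3 genes all 4 epithelium arrays lay above all 4 whole prostate arrays. Il6 and Ptgs2, with 1 probe set each, were tested only because the epithelium arrays are high, so their p-values are a description too.

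Tnf rose on both probe sets in control arrays, by 2.71 ± 0.25 on 1391384_at (limma adjusted p = 0.000847) and by 1.56 ± 0.21 on 1387691_at (adjusted p = 0.00341). In vinclozolin arrays 1391384_at rose by 2.04 ± 0.25 (adjusted p = 0.00239). The other, at 0.65 ± 0.21, did not pass (adjusted p = 0.063), though it passed on the values as deposited (0.0403) and without vinclozolin epithelium replicate 2 (0.0422). The probe sets of Tnf thus gave the same direction and unequal sizes. Both were tested only because the epithelium arrays are high, so their p-values are a description too.

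In the IL-1 family, Il1b rose by 2.02 ± 0.26 in control arrays (limma adjusted p = 0.00262) and by 1.38 ± 0.26 in vinclozolin arrays (adjusted p = 0.0105). The second call was lost without vinclozolin whole prostate replicate 2 (adjusted p = 0.0511) or vinclozolin epithelium replicate 2 (adjusted p = 0.0531). Il33 rose by 1.31 ± 0.10 and 1.11 ± 0.10 on 1389581_at (adjusted p = 0.000461 and 0.000836) and by 0.94 ± 0.12 and 1.02 ± 0.12 on 1373970_at (adjusted p = 0.00242 and 0.00184). Both probe sets of Il33 thus gave the same direction and close sizes.

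Il18 was the member that fell, with -1.26 ± 0.15 in vinclozolin arrays (limma adjusted p = 0.00237) and -0.70 ± 0.15 in control arrays (adjusted p = 0.0176). The control call was lost on the values as deposited (-0.51, adjusted p = 0.0574) and without any 1 of the 4 control arrays (adjusted p from 0.0509 to 0.106). Il1a did not pass on either probe set, with 0.79 ± 0.30 and 0.28 ± 0.32 in control arrays (adjusted p = 0.0973 and 0.555). In vinclozolin arrays the values were 0.52 ± 0.30 and -0.08 ± 0.32 (adjusted p = 0.245 and 0.88). Il1rn and Lif were not tested.

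**Figure D2:**
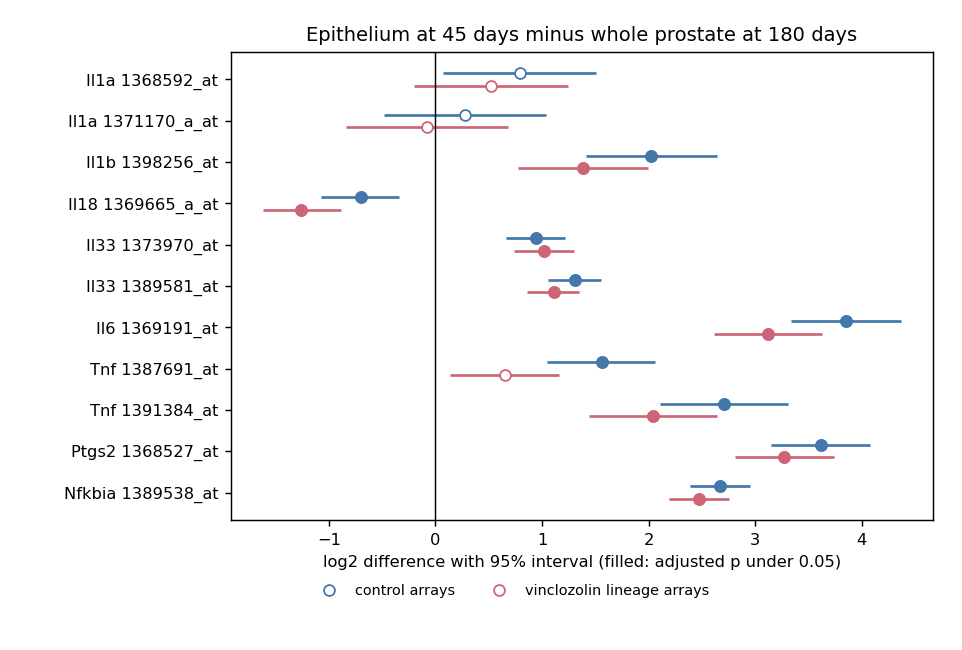
Log2 difference, epithelium minus whole prostate, of the 11 member probe sets tested, with 95% confidence intervals, for the control and the vinclozolin arrays. Il6, Ptgs2, Nfkbia, Tnf, Il1b and Il33 lie right of 0 in both, Il18 lies left of 0, and the intervals of Il1a 1371170_a_at span 0.

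Markers of tissue handling and of cell types moved with the same comparison. Immediate early and dissociation response genes (9 on the array, among them Fos, Fosb, Egr1 and Jun) summed to between 2773.2 and 3821.9 in whole prostate and between 36236.7 and 41188.6 in epithelium. All 9 were called higher in both lineages. Smooth muscle markers were called higher for 5 of 5 genes and fibroblast markers for 5 of 6, and basal epithelial markers (3 genes) summed to between 397.6 and 504.7 in whole prostate and between 2442.6 and 2597.6 in epithelium.

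The general leukocyte and mast cell markers fell, and the T and NK cell and macrophage markers were mixed. The 3 general leukocyte markers summed to between 187.0 and 373.9 in whole prostate and between 46.6 and 75.6 in epithelium, all 3 called lower in both lineages, and Laptm5 was under 16 on both vinclozolin epithelium arrays. The 5 T and NK cell markers summed to between 101.8 and 225.9 and between 63.1 and 98.3, and the 8 macrophage markers to between 4845.9 and 7799.4 and between 7123.0 and 10052.2. Of the 4 T and NK markers tested, 2 were called lower in each lineage. Another 1, Cd3e, was called higher in control arrays, where it was under 16 on both whole prostate arrays. Of the 7 macrophage markers tested, 3 were called lower in control arrays. In vinclozolin arrays 5 were called lower and 2, Cd14 and Lyz2, higher. The 4 mast cell markers summed to between 135.5 and 169.3 in whole prostate and between 35.9 and 60.3 in epithelium. The 2 tested were called lower in both lineages. Of the 2 B and plasma cell markers tested, 1 was called lower in both lineages. No marker of these lists was listed at 0, although Itgam and Mrc1 of the macrophages were under 16 on all 4 epithelium arrays. Itgam was under 16 on both control whole prostate arrays too. The part of RNA quality, tissue handling and cell composition in the members' differences was not tested.

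**Figure D3:**
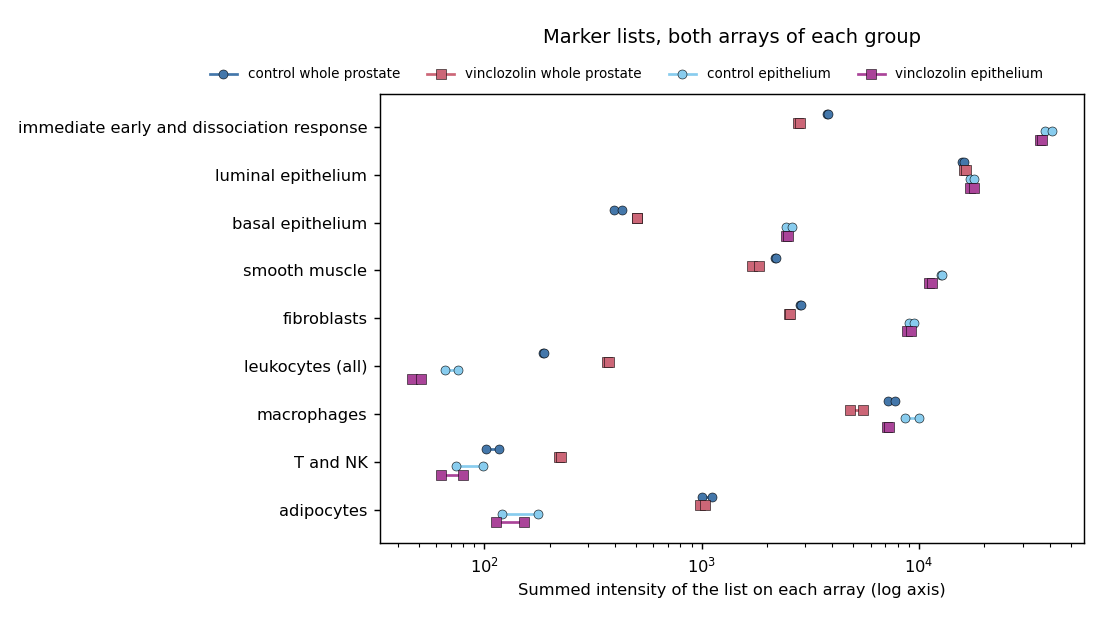
Summed deposited intensity (log axis) of each marker list on each array, 1 point per array, with colour for the group. Immediate early, smooth muscle, fibroblast and basal lists are higher on the epithelium arrays, and the general leukocyte and adipocyte lists are lower.

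The rest of the pathway was described with 113 genes in 7 lists, of which 99 were on the array and 83 were tested, each by its brightest probe set. In control arrays 21 were called higher in epithelium and 8 lower, with a median of 0.12. In vinclozolin arrays 16 were higher and 14 lower, with a median of -0.04. Over all probe sets tested, 12.9% and 13.1% were called higher and 15.0% and 14.2% lower. The filter used the mean over all 8 arrays, so genes dim in whole prostate could be tested through the epithelium arrays. Socs3 read 2.7 to 12.9 in whole prostate and 54.8 to 83.5 in epithelium, and Selp 6.1 to 16.6 and 39.9 to 61.1. Both are named after their values were seen. The list counts and medians of this comparison are therefore a description.

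Other target genes of NF-kappaB held most of the calls on the higher side. Of 24 tested, 13 were called higher and none lower in control arrays (median 0.80), and 10 higher and 2 lower in vinclozolin arrays (median 0.38). Among all probe sets tested, 12.9% and 13.1% were called higher and 15.0% and 14.2% lower. Over the 15 alternatives the number called ran from 8 to 15 and from 6 to 14. Ier3, an early response gene of cell survival, rose by 4.45 ± 0.10 in control arrays (limma adjusted p = 9.74e-06) and 4.39 ± 0.10 in vinclozolin arrays (adjusted p = 1.36e-05). Icam1, the leukocyte adhesion molecule, rose by 2.65 ± 0.17 and 1.87 ± 0.17 (adjusted p = 0.000248 and 0.000838). Birc3, an inhibitor of apoptosis, rose by 2.42 ± 0.17 and 1.80 ± 0.17 (adjusted p = 0.000331 and 0.000953). Plau, the urokinase gene, rose by 2.12 ± 0.15 and 1.42 ± 0.15 (adjusted p = 0.000307 and 0.00124), and its other probe set was called the same way.

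Inhibitors and feedback genes were split. Of 13 tested, 5 were called higher and 1 lower in control arrays, and 4 higher and 3 lower in vinclozolin arrays. Among all probe sets tested, 12.9% and 13.1% were called higher and 15.0% and 14.2% lower. Zfp36, whose protein destroys Tnf messenger RNA, rose by 2.93 ± 0.10 and 2.66 ± 0.10 (limma adjusted p = 3.86e-05 and 5.53e-05). Its intensity went from 353.9 and 350.9 in control whole prostate to 2709.1 and 2723.8 in control epithelium. Tnfaip3, which encodes the ubiquitin editing enzyme A20, rose by 1.92 ± 0.15 and 1.60 ± 0.15 (adjusted p = 0.000418 and 0.000812). Nfkbiz, a nuclear relative of the inhibitor, rose by 1.29 ± 0.22 and 2.13 ± 0.22 (adjusted p = 0.00718 and 0.00118). Its control call was lost without control whole prostate replicate 2 (adjusted p = 0.052). N4bp1 fell by 1.05 ± 0.13 in vinclozolin arrays (adjusted p = 0.00275) on 1 probe set, while its second gave -0.09.

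Upstream signalling genes were mixed where a gene had several probe sets. Of 20 adaptors and kinases tested, 3 were called lower in control arrays and 7 in vinclozolin arrays by their brightest probe set, and none higher, with medians of -0.28 and -0.29. Among all probe sets tested, 15.0% and 14.2% were called lower and 12.9% and 13.1% higher. The number called ran from 0 to 9 and from 1 to 11 over the alternatives, with 1 called higher in control arrays under a trended robust prior. Map3k14, the kinase of the non-canonical branch, fell by 0.91 ± 0.15 in vinclozolin arrays (limma adjusted p = 0.00616). Traf6, a ubiquitin ligase of IL-1 signalling, was lower on 1 probe set, with -0.96 ± 0.13 and -0.73 ± 0.13 (adjusted p = 0.00323 and 0.00846), but its other 3 gave -0.49, 0.00 and 1.05 in control arrays and -0.28, 0.09 and 1.21 in vinclozolin arrays. The highest of these was itself called in both lineages, so the direction of Traf6 is uncertain. The probe sets of Tab3, a partner of the kinase TAK1, were also called both ways in control arrays, at -0.99 and 0.55. By limma, 0 of the 4 NF-kappaB subunit genes tested were called in either lineage, and 2 and 0 had an unadjusted p under 0.05. Nfkb1, with 0.67 ± 0.20 (limma adjusted p = 0.0503), and Rela, with 0.49 ± 0.15 (adjusted p = 0.0554), came closest in control arrays and are named after their values were seen. In vinclozolin arrays they gave 0.06 ± 0.20 and -0.18 ± 0.15. Under the trended prior 2 of the 4 were called in control arrays, and without control whole prostate replicate 1 there was 1.

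Receptors were called both ways in control arrays, and processing genes only lower. Of 8 receptor genes tested, 1 was called higher and 2 lower in control arrays, and 1 higher in vinclozolin arrays. Of 6 processing genes tested, 1 was called lower in control arrays and 2 in vinclozolin arrays. Over all probe sets tested, 12.9% were called higher and 15.0% lower in control arrays, and 13.1% and 14.2% in vinclozolin arrays. Tnfrsf1a, the main TNF receptor, rose by 0.70 ± 0.12 in control arrays (limma adjusted p = 0.00716). Its 0.49 ± 0.12 in vinclozolin arrays (adjusted p = 0.0239) was lost under 7 of the 15 alternatives, namely median centring, the 4 arrays alone, and without any 1 whole prostate array or vinclozolin epithelium replicate 2. Il6st, which encodes gp130, was called higher on 1 of 4 probe sets, by 0.89 ± 0.13 and 1.02 ± 0.13 (adjusted p = 0.00484 and 0.00312), and the others lay between -0.42 and 0.23. On the lower side in control arrays, Il6r gave -0.72 ± 0.16 (adjusted p = 0.0184) and Il1r1 -0.52 ± 0.13 (adjusted p = 0.0276). The Il6r call was lost without either control whole prostate array or control epithelium replicate 1. The Il1r1 call was lost without any 1 control array, with no filter or with the 4 arrays alone. Il1rap was called lower in vinclozolin arrays on 1 of 2 probe sets, at -0.80 ± 0.15 (adjusted p = 0.0105), and its other gave -0.14. That call was lost without vinclozolin whole prostate replicate 2. Casp1, the enzyme that cuts the IL-1 beta and IL-18 precursors, fell in both, with -0.86 ± 0.11 and -0.67 ± 0.11 (adjusted p = 0.00265 and 0.00642).

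Beside Ptgs2, 8 further genes of prostaglandin E2 synthesis and reception were tested, with 2 called higher and 1 lower in control arrays and 1 higher in vinclozolin arrays. Among all probe sets tested, 12.9% and 13.1% were called higher and 15.0% and 14.2% lower. Pla2g4a, the phospholipase that frees arachidonic acid, rose by 1.16 ± 0.14 and 0.96 ± 0.14 (limma adjusted p = 0.00191 and 0.00391). Hpgd, which breaks prostaglandin E2 down, rose by 1.09 ± 0.13 in control arrays (adjusted p = 0.00218).

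**Figure D4:**
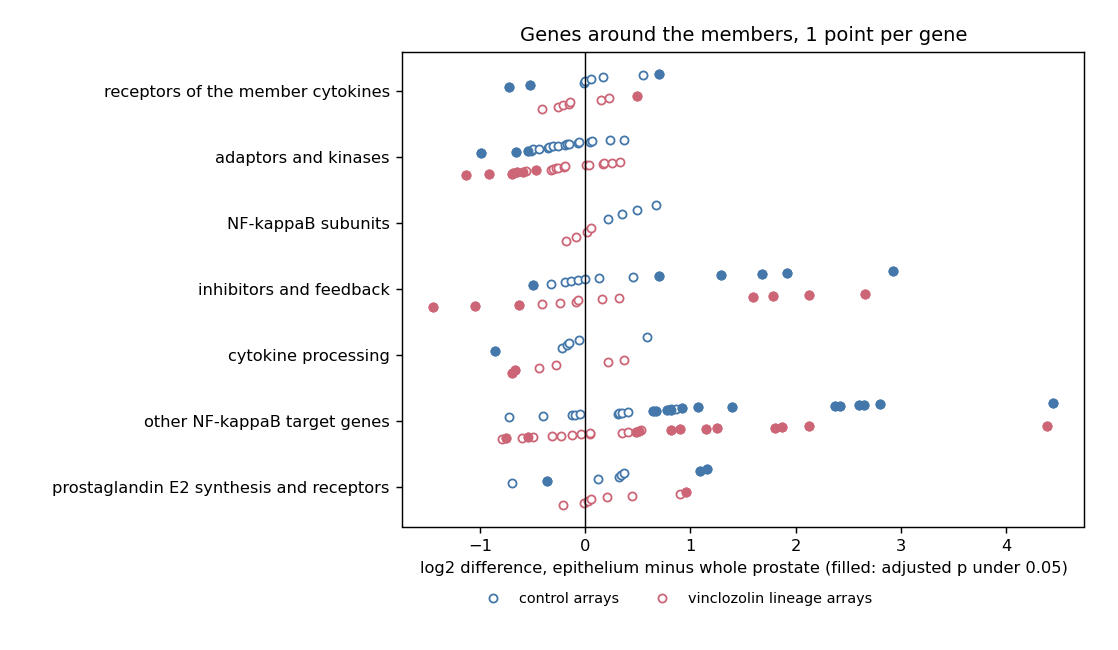
Log2 difference, epithelium minus whole prostate, of each pathway gene tested (brightest probe set), by list, for control and vinclozolin arrays, with filled points where the adjusted p is under 0.05. The other NF-kappaB target genes hold 13 called higher in control arrays, and the adaptors and kinases hold none called higher in either lineage.

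The second comparison was vinclozolin with control lineage in whole prostate at 180 days, and it addresses the study's question of effects passed to generation F3. By limma, 0 of the 11 member probe sets were called, where 1.74% of all probe sets were. At an unadjusted p under 0.05 there were 2, Il18 and Il6, where 18.7% of all probe sets reached it. The differences ran from -0.21 to 0.52, 6 positive and 5 negative where 48.7% of all were positive, with a median of 0.17 against -0.01 over all probe sets tested. The arrays did not overlap for 4 probe sets on the higher side and 3 on the lower, where 26.1% and 27.8% of all probe sets did not. The 5 probe sets tested only through the epithelium arrays (1 of Il1a, Il6, both of Tnf, and Ptgs2) were dim here, at 2.8 to 25.1. Ptgs2 and Il6, which set both ends of the range, are among them, and the added 16 understates their differences.

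Il6 was 0.52 ± 0.21 higher in the vinclozolin arrays (limma adjusted p = 0.259), with both control arrays, 2.8 and 10.3, under both vinclozolin arrays, 12.5 and 20.6. Without control replicate 1 it was 0.26, and without control replicate 2 it was 0.79. Il1b was 0.48 ± 0.26 higher (adjusted p = 0.371), where control replicate 1 alone read 9.0 and the other 3 arrays between 27.7 and 31.7, and without that array it was 0.07. Il18 was 0.40 ± 0.15 higher (adjusted p = 0.235) and did not overlap between the groups. None of the 3 passed the test.

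On the lower side, Nfkbia differed by -0.15 ± 0.12 (limma adjusted p = 0.545), Il33 by -0.19 ± 0.12 and -0.08 ± 0.10 (adjusted p = 0.436 and 0.72) and Ptgs2 by -0.21 ± 0.19 (adjusted p = 0.609). Nfkbia and both probe sets of Il33 did not overlap between the groups. The 95% confidence interval for Nfkbia, from -0.43 to 0.13, bounds its change more tightly than that for Il6, from 0.01 to 1.03. A p that misses the threshold does not show that the lineages were alike.

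Of the 83 pathway genes tested, 1 was called in this comparison, Bcl2a1, a survival gene of the BCL2 family found in leukocytes. It read 11.0 and 12.2 in control and 53.3 and 66.1 in vinclozolin whole prostate, and 33.6 and 36.6 and 28.8 and 45.3 in the epithelium groups. It was 1.42 ± 0.18 higher (limma adjusted p = 0.0211). The call was lost without any 1 of the 4 whole prostate arrays (adjusted p from 0.071 to 0.18) and with only these 4 arrays in the fit (0.0557). At an unadjusted p under 0.05 there were 16 of the 83. Among all probe sets tested, 18.7% reached that p and 1.74% were called.

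The general leukocyte markers summed to between 187.0 and 187.6 in control and between 367.8 and 373.9 in vinclozolin whole prostate, 1 of 3 called higher. T and NK markers summed to between 101.8 and 116.8 and between 221.2 and 225.9, none called. Macrophage markers summed to between 7174.5 and 7799.4 and between 4845.9 and 5560.8. Of the 7 tested, 4 were positive, with a median of 0.09, and 2, Csf1r and Fcgr3a, were called higher. Lyz2 (-0.86 ± 0.16) and Cd14 (-0.58 ± 0.11) were lower and not called. The lower sum thus does not give the direction of the list. Immediate early genes summed to between 3766.6 and 3821.9 and between 2773.2 and 2843.9, with Fos, Egr1 and Fosb called lower. The Fosb call was lost without any 1 whole prostate array and with only these 4 arrays in the fit. The Egr1 call was lost without either control whole prostate array. The part of these marker lists in the values of Bcl2a1 and of the members was not tested.

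The third comparison was vinclozolin with control lineage in epithelium at 45 days. By limma, 0 of the 11 member probe sets were called, where 0.0092% of all probe sets, 2 in number, were. At an unadjusted p under 0.05 there were 4 (Nfkbia, Ptgs2, Tnf 1387691_at and Il33 1389581_at), all lower in the vinclozolin arrays, where 11.4% of all probe sets reached it. In all, 10 of the 11 differences were negative, where 49.7% of all probe sets tested were positive, and the median was -0.28. The normalised arrays did not overlap for 8 probe sets, all lower, where 19.7% of all probe sets lay apart and lower and 19.7% apart and higher. The probe sets share the same 4 arrays, so they are not separate evidence of a direction.

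Tnf was -0.69 ± 0.21 on 1387691_at (limma adjusted p = 0.323) and -0.49 ± 0.25 on 1391384_at (adjusted p = 0.515). Its intensities of 53.5 and 40.8, and of 135.7 and 122.8, in control epithelium all lay above the 32.2 and 17.0, and 105.4 and 78.7, of vinclozolin epithelium. Ptgs2 was -0.55 ± 0.19 (adjusted p = 0.374), Nfkbia -0.35 ± 0.12 (adjusted p = 0.357) and Il33 -0.28 ± 0.10 on 1389581_at (adjusted p = 0.384). None of these overlapped between the lineages, and none passed the test.

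Il6 was -0.21 ± 0.21 (limma adjusted p = 0.767), Il1b -0.16 ± 0.26 (adjusted p = 0.861) and Il18 -0.15 ± 0.15 (adjusted p = 0.766). Il6 and Il18 overlapped between the lineages. Il1a gave 0.12 ± 0.30 and -0.37 ± 0.32 on its 2 probe sets, opposite in sign. Of the 83 pathway genes 0 were called in this comparison, 13 had an unadjusted p under 0.05, and 24 were positive. Among all probe sets tested, 11.4% reached that p and 49.7% were positive. The 24 other NF-kappaB target genes had a median of -0.29, against 0.17 in whole prostate. Over all probe sets tested these medians were -0.0 and -0.01. The genes of a comparison share the same 4 arrays, so the medians are not separate evidence of a direction.

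**Figure D5:**
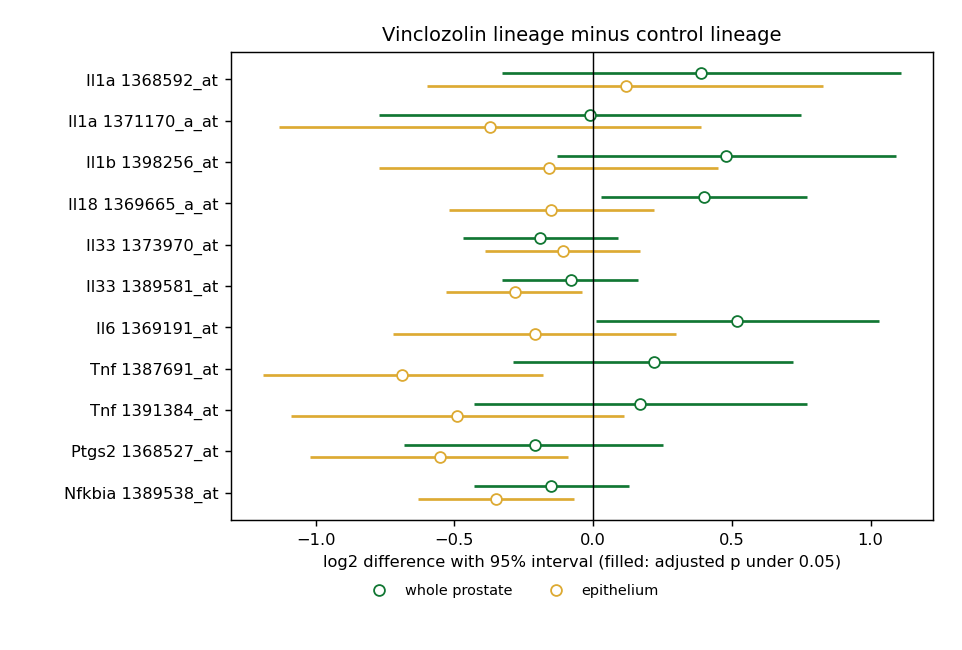
Log2 difference, vinclozolin minus control, of the 11 member probe sets tested, with 95% confidence intervals, in whole prostate and in epithelium. None has an adjusted p under 0.05, and in epithelium 10 of the 11 points lie left of 0.

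The difference between both lineage effects, epithelium minus whole prostate, was tested in the same fit. It equals the difference between the vinclozolin and the control value of the first comparison. By limma, 0 of the 11 members were called, where 0.29% of all probe sets were, and 3 had an unadjusted p under 0.05, where 13.5% of all did. The values ran from -0.90 to 0.08, and 10 of the 11 were negative, where 50.9% of all were positive. They were -0.90 ± 0.30 for Tnf 1387691_at (adjusted p = 0.288), -0.73 ± 0.30 for Il6 (adjusted p = 0.365) and -0.55 ± 0.22 for Il18 (adjusted p = 0.348). The smaller rise of Tnf and Il6 from whole prostate to epithelium in the vinclozolin arrays is therefore not shown to differ from that in the control arrays.

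For each of the 7 members whose group means spanned at least 1 log2 unit, the 3 genes with the most similar pattern were found by Pearson correlation over the 8 arrays, among 11484 genes. The arrays fall into 2 preparations, which sets most of each correlation, and between 182 and 700 genes reached 0.95. For Il6 they were Spry1, Krt15 and Nr4a3, for Ptgs2 Ensa, Vcl and Rgs5, and for Nfkbia Tiparp, Cnn1 and Col6a3. For Tnf they were Pdcd4, Igfbp3 and Nfil3, for Il1b Tmem204, Pex5 and Wfdc1, and for Il33 Sec61b, Bckdha and Sertad2. For Il18, the member that fell, they were Rac2, Uba6 and Ndufaf7. The 21 correlations lay between 0.9892 and 0.9995.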

How the data were processed

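The deposited table gives linear intensities of 31099 probe sets. The software behind the deposited intensities was not given in the sources used here. The arrays share a 2% trimmed mean. Detection calls were not used here. After removal of 57 control probe sets, log2(intensity + 16) was quantile normalised, because array medians spanned 0.29, and a filter on the mean at the 30th percentile (intensity 13.7) kept 21729. Group means were fitted with limma 3.58.1 in R 4.3.3, with 4 residual degrees of freedom and a prior of 2.62. Tables and plots used Python 3.11.15 and matplotlib 3.10.9. In simulated data for control epithelium against whole prostate over 21729 probe sets, the calls took in 40% of 100 probe sets shifted by log2 1. They took in 86% of 100 shifted by log2 2, and 10 of 136 calls were false. Far fewer probe sets were shifted there than the 6051 called in the data, which makes the adjustment stricter. The spread was drawn from the fitted prior. These shares therefore do not carry over to the preparation comparison.

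Members, lists and motifs were chosen with earlier results of these data known. Text names all members, 3 similar genes per member, and most of the up to 4 called genes of lowest p per list and comparison. Of the latter it leaves out Traf3, Ripk1, Tab1, Pycard and Ptges3, called lower, and Tsc22d3, Ptges and Hspa1a, called higher. Alternatives were another added constant, no filter, the values as deposited, median centring, fewer arrays, the replicate number as a block, another prior and each array left out. The list counts and named pathway genes were added to these alternatives after the data were seen. No label gives a scan or extraction batch.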

Additional observations from a re-analysis of the deposited data

How the results depend on the processing

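Under the 7 other settings and with each of the 8 arrays left out, 8 of the 9 member calls in control and 7 of the 8 in vinclozolin arrays of the preparation comparison were kept; the exceptions were Il18 in control and Il1b in vinclozolin arrays. With 1 array left out, 8 to 9 and 7 to 8 members were called there, and 0 in the lineage comparisons and the difference of effects under every alternative. A group left with 1 array is assumed to vary like the others. Il6, Ptgs2 and Tnf passed the filter only through the epithelium arrays, and every alternative but the one with no filter used that same filter. Their kept calls are therefore a description.

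Over all probe sets, whole prostate lineage calls (379) were 242 with log2(value + 1), 200 with no filter, 65 with only the 4 arrays, 1814 with a trended robust prior and 26 to 220 with 1 array left out. Epithelium lineage calls (2) were 0 with log2(value + 1), 0 with no filter, 0 with only the 4 arrays, 1 with median centring, 205 with the trended prior and 0 to 0 with 1 array left out. Calls for the difference of effects (63) were 32 with no filter, 540 with the trended prior and 5 to 18 with 1 array left out. Preparation calls were 2661 to 5751 in control and 3366 to 6024 in vinclozolin arrays with 1 array left out, and 3931 in vinclozolin arrays with only the 4 arrays. Higher calls in the whole prostate lineage comparison were 47.0% of calls, and 36.1% with median centring. The causes were not tested.

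Only values that had not passed changed sign. In whole prostate lineage these were Il1a 1371170_a_at (0.07 as deposited, 0.01 with median centring, -0.46 to 0.43 with 1 array left out, 0.21 among them) and Tnf 1391384_at (-0.13 to 0.48 with 1 array left out, -0.02 among them). In epithelium lineage, with 1 array left out, they were Il1a 1368592_at (-0.15 to 0.38, -0.12 among them) and Il18 (-0.33 to 0.02). In the difference of effects they were Il1a 1368592_at (-0.63 to 0.09), Il1a 1371170_a_at (-0.80 to 0.09) and Il33 1373970_at (-0.02 to 0.18) with 1 array left out, and Ptgs2 (0.01) with log2(value + 1). In vinclozolin arrays of the preparation comparison it was Il1a 1371170_a_at (0.09 as deposited, -0.52 to 0.37 with 1 array left out).

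Deviations of same-numbered replicates correlated between -0.0202 and 0.0294, so the numbers were not taken as pairs. With the replicate number as a block, calls over all probe sets were 177 and 0 in the lineage comparisons, 26 for the difference of effects, and 5356 and 5404 in the preparation comparison. The number of arrays, 2 per group, limits the precision throughout.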
